A study of Mus musculus with 6 samples.

Results

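The genes described here are 36 components of the cell death machinery: the BCL2 family, the caspases, the necroptosis and pyroptosis genes, and the death receptor and inhibitor-of-apoptosis genes that connect them. They were chosen by gene symbol from the platform's probe-to-gene table, and the brightest probeset stood for each gene. Of the 36, 34 had a probeset of their own among the 19288 genes named on the array, and 32 were bright enough to be tested, against 15145 genes tested in all. Casp1 and Tnfsf10 never exceeded the detection level, the 25th percentile of an array's signals. Bcl2a1a was covered only by 3 probesets that also carry the symbols of its paralogues, and Ripk1 had no probeset named in the table; neither was analysed here.

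The samples were cultured mouse fibroblasts, 3 arrays with the hairpin construct shARF and 3 with the control hairpin shSCR. The series title calls the cells of both groups dp53R mouse embryonic fibroblasts, and the sample titles of both groups carry the word Ras; the labels do not spell out either term. A short hairpin RNA lowers the transcript that it matches, and ARF is a tumour suppressor protein of the Cdkn2a locus that holds back MDM2 and so stabilises p53. The labels call the arrays of a group biological replicates and do not say if the cultures or animals were separate, so p-values measure only the spread between these samples.

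Apoptosis by the mitochondrial route is set by the BCL2 family: survival members hold the pore formers in check, BH3-only members release them, and the cytochrome c that then escapes activates caspases. Death receptors reach the same caspases through FADD and caspase 8. Where caspase 8 is inactive, RIPK1, RIPK3 and the pore-forming kinase-like protein MLKL can carry out necroptosis, a lytic death, and the nucleic acid sensor ZBP1 can start it through RIPK3. Gasdermin D forms the pores of pyroptosis after inflammatory caspases cut it. Several of these genes, Zbp1 and Mlkl among them, are known targets of interferon.

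The hairpin's target checked the labels. Cdkn2a had a signal of 315.4, 254 and 286 on the shARF arrays, against 535, 539 and 516 on the shSCR arrays. This was a fall: the log2 difference was -0.90 ± 0.086 (SE; limma, adjusted p = 0.00459). The locus also encodes INK4A, and the probeset's symbol does not tell the transcripts apart. All 10 fibroblast markers examined were above the detection level on all 6 arrays, and in limma 0 passed the test. Unadjusted p-values were under 0.05 for 2 that were higher and 2 that were lower, beside 22.2% of all genes. The SAM-type test (Significance Analysis of Microarrays) called 1 each way, beside 6.58% of all genes. Dcn differed by 0.71 ± 0.160 (SE) on the log2 scale and Thy1 by -0.38 ± 0.097 (limma, adjusted p = 0.0625 and 0.0874). The groups did not overlap for Col1a1, Col3a1, Fn1, Dcn and S100a4, higher in shARF, or for Pdgfra and Thy1, lower. Over all genes they did not overlap for 28.6%. Array values correlated at 0.995 to 0.997 within groups and at 0.992 to 0.994 between groups across the tested probesets, which are not independent replicates. No label gives a batch.

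Of the 32 tested cell death genes, 2 rose in shARF cells and 0 fell (limma, adjusted p under 0.05 over all probesets); both that rose belong to the necroptosis arm. Over all genes tested, 4.01% passed in either direction and 1.62% were higher and 2.38% lower in shARF. The 2 of 32 are 6.25%, so the list as a whole stood near the background. Unadjusted p-values were under 0.05 for 5 genes that were higher and 3 that were lower, 8 of 32 beside 22.2% of all genes. The SAM-type test called 3 of the 32, 2 higher and 1 lower, beside 6.58% of all genes. The arrays of the groups did not overlap for 9 of the 32, or 28.1%, beside 28.6% of all genes. The median difference of the 32 was 0.01 on the log2 scale, with 16 above 0 and 16 below, and that of all genes was -0.01.

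**Figure D1:**
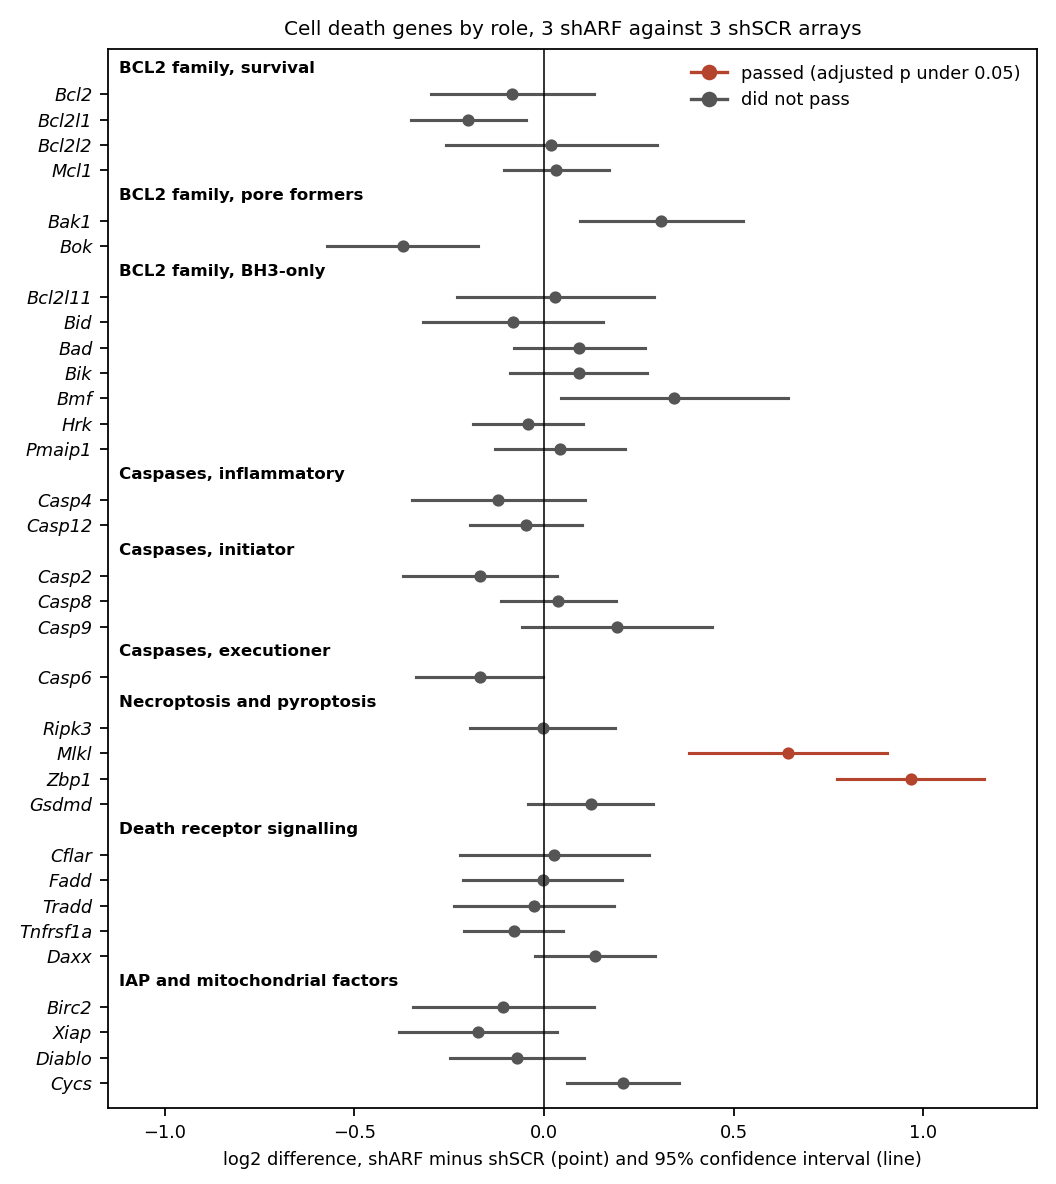
The log2 difference between 3 shARF and 3 shSCR arrays (horizontal axis, point) with its 95% confidence interval (line, per gene and not adjusted for the number of genes) for the 32 tested cell death genes, grouped by role. Zbp1 and Mlkl, in red, passed the test, and the intervals of 29 of the 32 lie within a 1.5-fold change either way.

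Zbp1 showed the largest difference of the 32. Its product, the sensor ZBP1, binds left-handed double-stranded nucleic acid and hands the signal to RIPK3. Zbp1 (probeset 10490150) had a signal of 49.1, 49.0 and 55.2 on the shARF arrays, against 23.9, 26.9 and 27.6 on the shSCR arrays. Every shARF array lay far above every shSCR array, and all 6 were above the detection level of 14.1 to 14.9. The means were 51.1 ± 3.55 in shARF and 26.1 ± 1.96 in shSCR (SD, n = 3 each), a rise of 0.97 ± 0.082 (SE) on the log2 scale, or 1.96-fold (limma, adjusted p = 0.00345). Leaving out any single array kept this call, at adjusted p of 0.0110 to 0.0182 in limma.

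Mlkl, whose product is the executioner of necroptosis, rose less. Mlkl (probeset 10581813) gave 190, 187 and 157 on the shARF arrays, against 103, 129 and 110 on the shSCR arrays. The groups did not overlap, the lowest shARF array being replicate 3 and the highest shSCR array replicate 2. The means were 178 ± 18.4 in shARF and 114 ± 13.5 in shSCR (SD, n = 3 each), a rise of 0.64 ± 0.111 (SE) on the log2 scale, or 1.56-fold (limma, adjusted p = 0.0276). The call was lost without shARF replicate 1 or 2 (limma, adjusted p = 0.0837 and 0.0793) and without shSCR replicate 1 or 3 (0.0926 and 0.107), while the difference stayed between 0.57 and 0.74.

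The promoter of Mlkl is shown because Mlkl passed the test, and that of Cflar because Cflar was the only one, among the 27 tested genes with a window, to hold the core of the interferon-stimulated response element, GAAA, any 2 bases and GAAA again, on either strand; Cflar itself did not pass. Each window runs from 250 bases before to 50 after the start of the gene, as RefSeq gives it for assembly GRCm38.p6, and capitals mark the match. The Mlkl window, chr8:111338156-111338455 on the minus strand, held no match, and that of Cflar, chr1:58711241-58711540 on the plus strand, held 1, on the opposite strand just after the start.
Mlkl: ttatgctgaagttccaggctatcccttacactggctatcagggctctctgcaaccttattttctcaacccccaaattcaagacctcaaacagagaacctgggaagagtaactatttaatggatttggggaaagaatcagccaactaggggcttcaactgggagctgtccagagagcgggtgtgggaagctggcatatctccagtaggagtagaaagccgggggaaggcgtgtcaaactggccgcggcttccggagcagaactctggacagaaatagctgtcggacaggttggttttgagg
Cflar: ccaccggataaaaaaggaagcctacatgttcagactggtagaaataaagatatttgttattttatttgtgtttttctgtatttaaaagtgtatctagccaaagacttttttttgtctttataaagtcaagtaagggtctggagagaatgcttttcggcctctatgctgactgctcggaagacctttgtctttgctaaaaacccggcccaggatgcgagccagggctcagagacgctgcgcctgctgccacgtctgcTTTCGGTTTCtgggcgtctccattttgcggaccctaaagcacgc

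Of the 36 genes, 31 matched the promoter table by symbol, with 44 windows; Zbp1, Gsdmd, Tradd, Bik and Pmaip1 were not matched, so their promoters were not searched. The element's core stood in 2 of the 44 windows, 1 of Cflar and 1 of Ripk1, beside 3.44% of all 32851 windows of that length. The GAS element of the interferon gamma response, TTCNNNGAA on either strand, stood in windows of Casp12, Tnfrsf1a and Ripk1, beside 8.30% of all windows. Matches are letters in a window, and their absence says nothing about binding of a factor.

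The other measured genes of lytic death did not pass. Ripk3, the kinase that lies between ZBP1 and MLKL, had a signal of 219, 227 and 227 on the shARF arrays, against 206, 220 and 250.2 on the shSCR arrays. The shARF values fell inside the range of the shSCR values. Its difference was -0.0037 ± 0.082 (SE) on the log2 scale, with a 95% interval of -0.20 to 0.19 (limma, adjusted p = 0.986). Gsdmd, the gasdermin D gene, gave 97.0, 101 and 91.3 in shARF, against 83.8, 88.8 and 93.3 in shSCR, so the groups overlapped. The difference was 0.12 ± 0.070 (limma, adjusted p = 0.368).

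**Figure D2:**
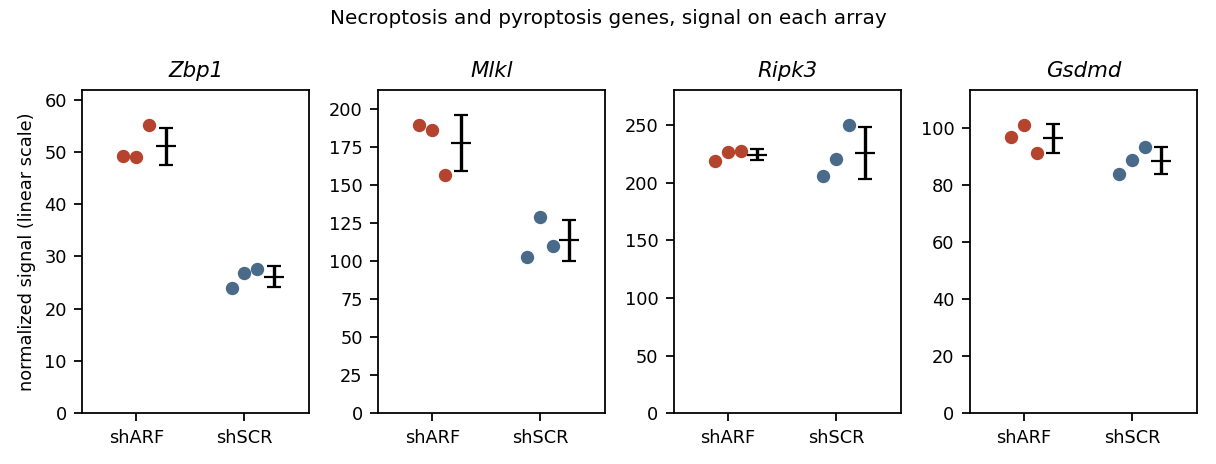
Normalized signal on a linear scale (vertical axis) of Zbp1, Mlkl, Ripk3 and Gsdmd on the 3 shARF arrays (left) and the 3 shSCR arrays (right), 1 point per array in the order of the replicate numbers, with the mean and SD as a bar beside them. The groups are apart for Zbp1 and Mlkl and overlap for Ripk3 and Gsdmd.

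Both measured pore formers of the BCL2 family differed in opposite directions, and neither passed. Bok encodes a relative of BAX and BAK that can act without BH3-only proteins. Its signal was 162, 153 and 135 on the shARF arrays, against 206, 186 and 190 on the shSCR arrays. Every shARF array lay below every shSCR array. The difference was -0.37 ± 0.085 (SE) on the log2 scale (limma, adjusted p = 0.0636), and 4 alternatives called it, the SAM-type test among them (false discovery rate 0.0341). Bak1, which encodes the mitochondrial pore former BAK, had 2112, 1873 and 2143 in shARF, against 1757, 1716 and 1475 in shSCR. Here every shARF array was the higher, by 0.31 ± 0.091 on the log2 scale (limma, adjusted p = 0.121, and 0.0206 with an intensity trend and robust prior).

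Among the survival genes of the BCL2 family, 0 of 4 tested passed in limma, with 1 unadjusted p under 0.05 and 0 calls by the SAM-type test. Bcl2l1, which encodes BCL-XL, was that gene: it gave 382, 374 and 415 on the shARF arrays, against 439.7, 443 and 461 on the shSCR arrays. The groups did not overlap. The difference was -0.20 ± 0.065 (SE) on the log2 scale (limma, adjusted p = 0.147). Mcl1, the gene of the short-lived survival protein MCL1, had 754, 800.04 and 778 in shARF, against 757, 739 and 784 in shSCR, and the values intermingled. Its 95% interval ran from -0.11 to 0.17. Bcl2, the founding survival gene, differed by -0.08 ± 0.092 and Bcl2l2, which encodes BCL-W, by 0.02 ± 0.118.

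The 7 BH3-only genes were all tested and 0 passed in limma, with 1 unadjusted p under 0.05 and 0 calls by the SAM-type test. Bmf, whose product is linked to the cytoskeleton and to loss of attachment, had that p. Its signal was 45.2, 48.3 and 60.1 on the shARF arrays, against 45.5, 36.8 and 38.3 on the shSCR arrays. The groups overlapped, since shARF replicate 1 lay just below shSCR replicate 1. The difference was 0.34 ± 0.127 (SE) on the log2 scale (limma, adjusted p = 0.190). The other differences were small: -0.08 ± 0.101 for Bid, which links death receptors to mitochondria, -0.04 ± 0.062 for Hrk, 0.03 ± 0.111 for Bcl2l11, which encodes BIM, 0.04 ± 0.073 for Pmaip1, the p53 target gene of NOXA, 0.09 ± 0.077 for Bik and 0.09 ± 0.074 for Bad. For Bad the 3 shSCR arrays were nearly equal, at 149, 148 and 149, while the shARF arrays gave 172, 146 and 158.

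Of the 6 tested caspase genes, 0 passed in limma or in the SAM-type test, and 1 had an unadjusted p under 0.05. Casp6, an executioner caspase that cuts lamins, was that gene, with 81.7, 78.9 and 70.9 on the shARF arrays, against 84.5, 87.0 and 88.3 on the shSCR arrays. The groups were apart by a small margin. The difference was -0.17 ± 0.071 (SE) on the log2 scale (limma, adjusted p = 0.239). Casp9, the initiator activated on the apoptosome, had 60.7, 49.5 and 49.7 in shARF, against 47.2, 42.0 and 50.6 in shSCR, a difference of 0.19 ± 0.107 (limma, adjusted p = 0.358). Casp8, the initiator below death receptors and the brake on necroptosis, differed by 0.04 ± 0.064 with a 95% interval of -0.11 to 0.19, and Casp2 by -0.17 ± 0.086.

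Neither inflammatory caspase that was tested passed. Casp4, whose product is mouse caspase 11, the sensor of intracellular lipopolysaccharide, had 29.8, 27.3 and 25.1 on the shARF arrays, against 30.2, 32.5 and 26.6 on the shSCR arrays. The groups overlapped, with a difference of -0.12 ± 0.097 (SE) on the log2 scale (limma, adjusted p = 0.521). Casp12, its neighbour in the same caspase cluster, differed by -0.05 ± 0.063. Casp1, the interleukin 1 converting enzyme gene, gave 5.79 to 8.32 in shARF and 6.89 to 8.08 in shSCR, all under the detection level, so no fold is given.

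**Figure D3:**
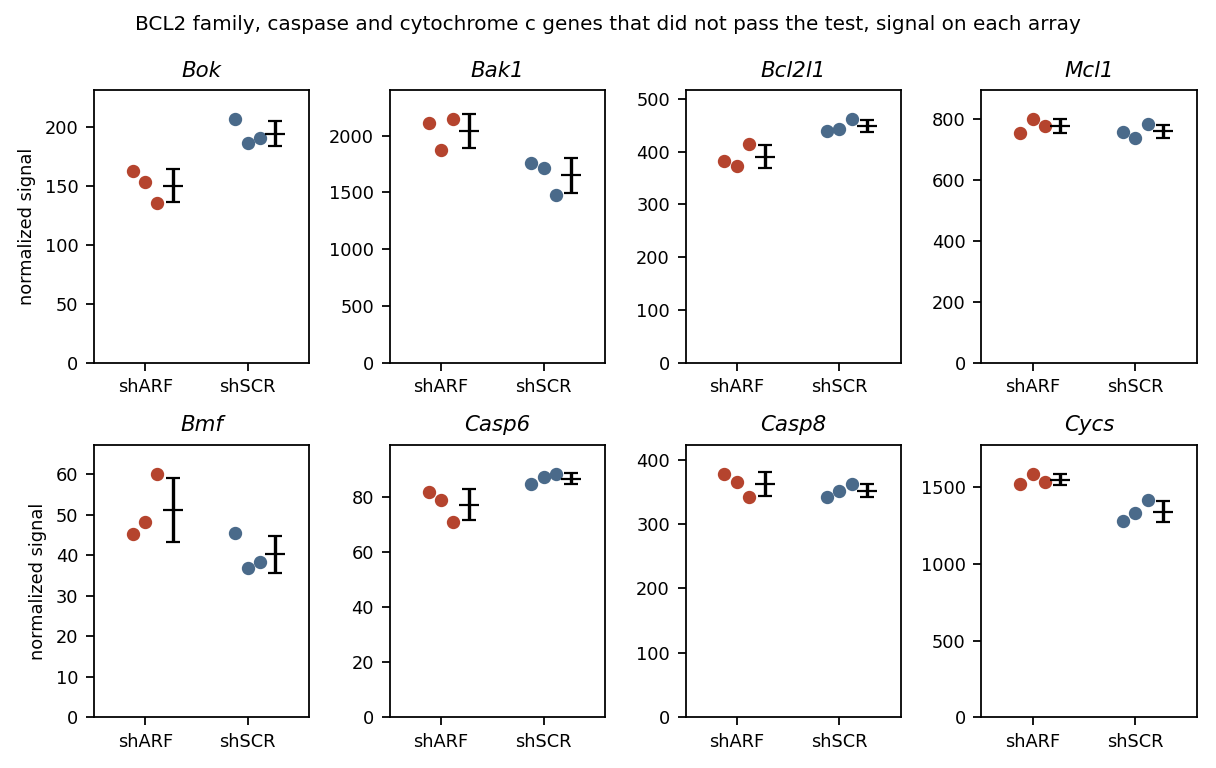
Normalized signal on a linear scale (vertical axes) of 8 cell death genes that did not pass the test, on the 3 shARF arrays (left) and the 3 shSCR arrays (right), 1 point per array in the order of the replicate numbers, with the mean and SD as a bar beside them. Bok, Bcl2l1 and Casp6 were lower and Bak1 and Cycs higher on every shARF array, while Bmf, Mcl1 and Casp8 overlapped.

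Death receptor genes stayed close to the control values. Of 5 tested, 0 passed in limma or the SAM-type test, and 0 had an unadjusted p under 0.05. Daxx, which encodes a chromatin and death-domain-associated protein and showed the largest difference of this group, had 206, 201 and 182 on the shARF arrays, against 182, 177 and 177 on the shSCR arrays. The lowest shARF array barely exceeded the highest shSCR array, and the difference was 0.13 ± 0.067 (SE) on the log2 scale (limma, adjusted p = 0.313). Tnfrsf1a, the gene of the main TNF receptor, differed by -0.08 ± 0.055, with every shARF array lower, and the adaptor genes Tradd and Fadd by -0.03 ± 0.090 and -0.0032 ± 0.089. Tnfsf10, the gene of the ligand TRAIL and a known interferon target, lay below the detection level, at 7.56 to 10.1 in shARF and 6.99 to 9.26 in shSCR.

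Cflar, which encodes FLIP, the inhibitor of caspase 8, had 3 probesets, and none passed. Its brightest probeset differed by 0.03 ± 0.106 (SE) on the log2 scale, and the others by -0.08 ± 0.072 and 0.08 ± 0.076. The adjusted p-values of the 3 in limma were 0.912, 0.576 and 0.609. The probesets thus did not share a sign.

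Of the 4 mitochondrial factors and their opponents, 0 passed in limma or the SAM-type test, and 1 had an unadjusted p under 0.05. Cycs, the cytochrome c gene, was that gene: its brightest probeset gave 1521, 1588 and 1536 on the shARF arrays, against 1278, 1330.2 and 1415 on the shSCR arrays. Every shARF array lay above every shSCR array, by 0.21 ± 0.063 (SE) on the log2 scale (limma, adjusted p = 0.129, and 0.0203 with the trend and robust prior). Another bright probeset differed by 0.17 ± 0.062, and the remaining, dim one by -0.33 ± 0.300. Cycs has processed pseudogenes of near-identical sequence, so these values may read several loci. Birc2 and Xiap, which encode ubiquitin ligases that restrain caspases and RIPK1, differed by -0.11 ± 0.102 and -0.17 ± 0.089, and Diablo, whose product antagonises them, by -0.07 ± 0.075.

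The size of the differences was bounded for most of these genes. The 95% interval lay within a 1.5-fold change either way for 29 of the 32, or 90.6%, the exceptions being Zbp1, Mlkl and Bmf, beside 91.7% of all genes tested. The median SD between replicates on the log2 scale was 0.114 in shARF and 0.076 in shSCR for the 32 genes, beside 0.096 and 0.087 for all genes. The median of the 32 genes per array, relative to the shSCR mean, was 0.014, 0.038 and -0.045 on shARF replicates 1, 2 and 3 and -0.037, -0.0045 and 0.030 on shSCR replicates 1, 2 and 3. All 6 medians lay within 0.05 of 0.

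**Figure D4:**
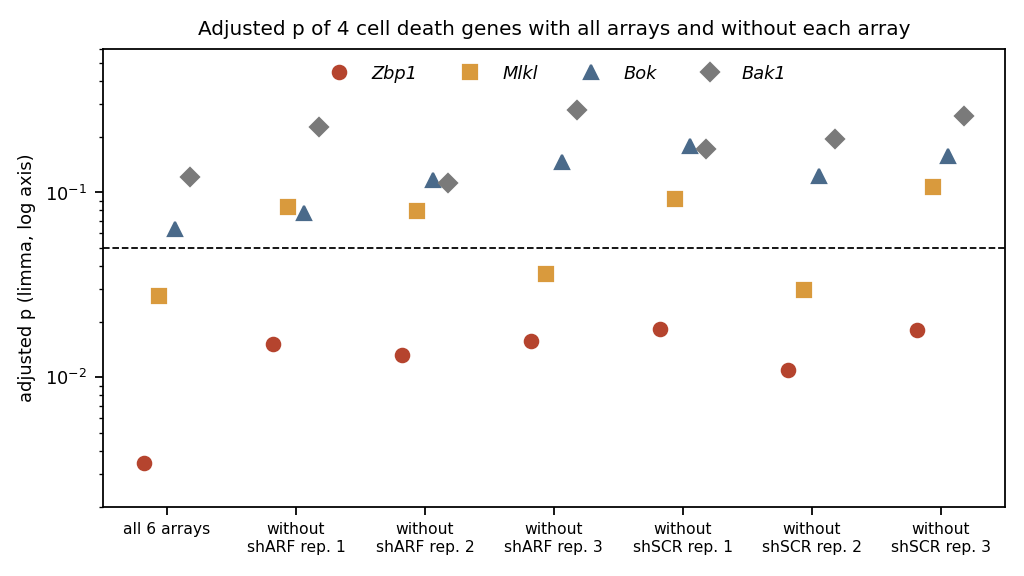
Adjusted p in limma (vertical log axis) of Zbp1, Mlkl, Bok and Bak1 with all 6 arrays and with each array left out, 1 point per gene and setting, with the threshold of 0.05 as a dashed line. Zbp1 stays below the line in every setting, Mlkl crosses it without 4 of the arrays, and Bok and Bak1 lie above it throughout.

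Other genes of the same pathways were counted from a list of 98 symbols, of which 86 had a probeset of their own and 75 were tested. Among these, 6 passed in limma, 3 that rose and 3 that fell, or 8% of the 75, beside 4.01% of all genes. The groups did not overlap for 32 of the 75, 11 higher and 21 lower. This was 42.7%, beside 28.6% of all genes, where 1817 were higher and 2515 lower. The median difference was -0.04. Unadjusted p-values were under 0.05 for 8 that were higher and 14 that were lower, 29.3% of the 75. Over all genes this was 22.2%, with 1326 higher and 2035 lower, so all genes leaned lower too. The SAM-type test called 10 of the 75, 6 higher and 4 lower, beside 6.58% of all genes. The list was chosen with earlier results of these data known, so these shares are a description and not a test of the pathways.

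The 3 that rose were Xaf1, Eif2ak2 and Rnf31. Xaf1, an interferon-induced antagonist of XIAP, had 294, 284 and 287 on the shARF arrays, against 67.4, 119 and 59.1 on the shSCR arrays. The shARF arrays were nearly equal and shSCR replicate 2 stood above its group, with a difference of 1.89 ± 0.237 (SE) on the log2 scale (limma, adjusted p = 0.0102). Eif2ak2, the gene of the double-stranded RNA-dependent kinase PKR, had 280.1, 298 and 249 in shARF, against 183, 195 and 176 in shSCR, and rose by 0.58 ± 0.084 on the log2 scale (limma, adjusted p = 0.0155). Rnf31, the catalytic subunit gene of the linear ubiquitin ligase that acts at TNF receptors, had 146, 143 and 139 in shARF, against 104, 112 and 107 in shSCR, and rose by 0.41 ± 0.060 (adjusted p = 0.0165).

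The 3 that fell were Ppif, Bcl2l13 and Birc3. Ppif encodes cyclophilin D, the regulator of the mitochondrial permeability transition, and had 196, 178 and 179 on the shARF arrays, against 347, 315 and 310 on the shSCR arrays. The groups were far apart, and the gene fell by 0.81 ± 0.073 (SE) on the log2 scale (limma, adjusted p = 0.00376). Bcl2l13, a BCL2 relative of the mitochondrial outer membrane, had 84.3, 72.5 and 72.6 in shARF, against 109, 117 and 101.5 in shSCR, and fell by 0.51 ± 0.087 on the log2 scale (limma, adjusted p = 0.0267). Birc3, a close relative of Birc2, had 64.7, 60.8 and 59.9 in shARF, against 81.3, 84.0 and 78.0 in shSCR, and fell by 0.39 ± 0.063 (limma, adjusted p = 0.0219). In neither gene did the groups overlap. The calls of Ppif and Xaf1 held without any 1 array, while those of Rnf31, Bcl2l13 and Birc3 each held in 1 of the 6 such fits and that of Eif2ak2 in 3. The caspase activator gene Apaf1 differed by -0.15 ± 0.064 and the death receptor gene Fas by -0.25 ± 0.147, and neither passed. Serpinb9, which encodes a granzyme B inhibitor and was picked out after its values were seen, had a larger difference than Eif2ak2 but missed the threshold: 0.85 ± 0.182 (limma, adjusted p = 0.0536). Some alternatives called Serpinb9: the SAM-type test, 16 added to the signal, the trend and robust prior, and the fit without shSCR replicate 2. Bax had no probeset of its own and was not analysed here.

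**Figure D5:**
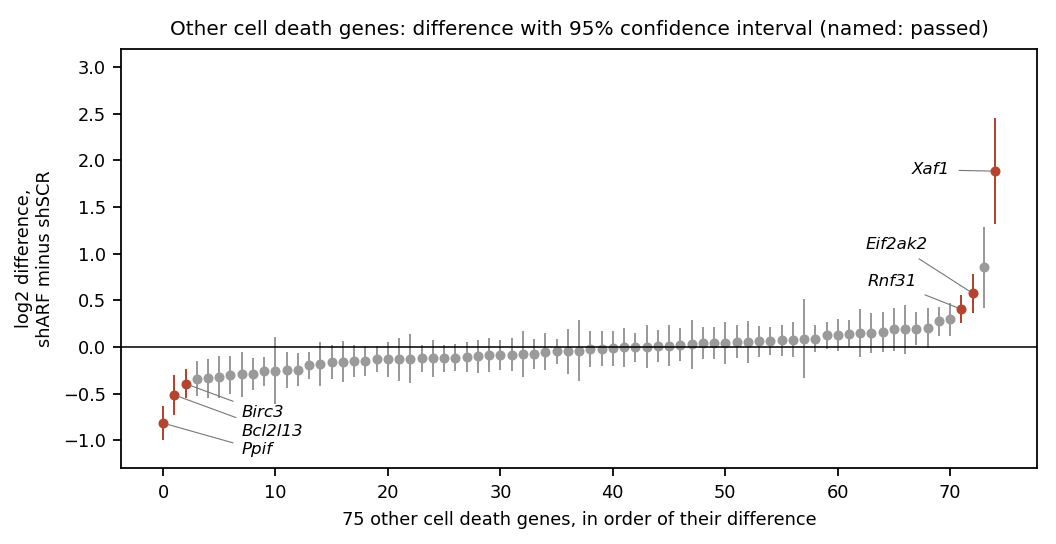
The log2 difference between shARF and shSCR (vertical axis, point) with its 95% confidence interval (line) for 75 other genes of cell death pathways, in order of their difference. The 6 named genes passed the test, Xaf1, Eif2ak2 and Rnf31 higher in shARF and Ppif, Bcl2l13 and Birc3 lower.

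Leukocytes express Zbp1 and Mlkl, so leukocyte markers were read beside them. Of 12 measured markers of macrophages and leukocytes, 6 exceeded the detection level on no array, among them the defining genes Ptprc, Adgre1, Csf1r and Itgam, and 4 exceeded it on all 6. Those 4 were Cd14, at 75.9 to 91.3 in shARF and 65.8 to 84.1 in shSCR, Cd68, at 40.1 to 51.4 in shARF and 57.3 to 63.0 in shSCR, Tyrobp, at 24.1 to 25.4 in shARF and 21.3 to 23.0 in shSCR, and Cd53. The summed signal of the 12 ranged over 277 to 312 in shARF and 261 to 287 in shSCR. Only 6 of the 12 were bright enough to be tested. Of these 6, Cd53 alone rose in limma, with 54.9, 39.7 and 42.5 in shARF, against 28.7, 26.0 and 31.5 in shSCR (adjusted p = 0.0442). The SAM-type test called 1 of the 6 higher and 0 lower. Unadjusted p-values were under 0.05 for 2 that were higher, Cd53 and Tyrobp, and 1 that was lower, Cd68. Of 6 epithelial markers 5 were tested and 1 rose, Krt18. It had 317, 190 and 244 in shARF, against 136, 116 and 134 in shSCR, a difference of 0.93 ± 0.176 (SE) on the log2 scale (limma, adjusted p = 0.0370). The SAM-type test called 2 of the 5 higher. In limma 3 were higher and 0 lower at unadjusted p-values under 0.05, Krt8 (0.74 ± 0.164, adjusted p = 0.0583) and Krt5 (0.27 ± 0.080, adjusted p = 0.124) beside Krt18. The summed signal of the 6 was 340.3 to 475 in shARF and 231 to 263 in shSCR, most of it from Krt18 and Krt8. Cdh1 exceeded the detection level on no array, at 11.6 to 13.4 in shARF and 12.3 to 13.6 in shSCR. Epcam exceeded it on 3 of the 6 arrays. For both Epcam and Krt14 the groups overlapped, and neither passed (limma, adjusted p = 0.502 and 0.443). Of 5 lymphocyte and 4 endothelial markers measured, 3 in each list were tested. Of these, 0 passed in limma or the SAM-type test, with 1 in each list at an unadjusted p under 0.05. Over all genes tested, 4.01% passed in limma, 6.58% were called by the SAM-type test and 22.2% had an unadjusted p under 0.05. The part of these markers in the differences of the cell death genes was not tested. In bulk RNA, more cells that express a gene and more RNA per cell cannot be told apart.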

How the data were processed

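The authors deposited 1 intensity per probeset and array, on a linear scale, for 26851 probesets. Per the series design text and the submitters' processing notes, the authors normalized core probesets with RMA (background correction, quantile normalization and a summary per probeset) in Affymetrix Expression Console; version and genome build are not given in the sources used here. Quantile normalization hides a change common to most genes, and background correction shrinks folds of dim genes. The intensities were turned to log2 here.

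Probesets were named from the platform table: 21056 carried 1 symbol, 1450 several and 4345 none. A probeset was tested if it exceeded its array's 25th percentile (the detection level) on at least 3 of 6 arrays, which left 20310. The comparison of shARF with shSCR used lmFit and eBayes of limma 3.58.1 (two-sided; R 4.3.3) with Benjamini-Hochberg adjustment over these probesets at 0.05. Interval widths use the moderated variance. The design text names SAM; a SAM-type statistic over all 20 label splits was an alternative. Fits were tested on simulated data with independent noise per probeset, which cannot give the error rate on these arrays.

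The genes and lists were chosen with earlier results of these data known. Values on every array are given for each of the 36 genes that passed and for the largest difference in each role group; Bak1, Mcl1, Ripk3, Gsdmd, Bad and, in a plot, Casp8 were added after their values were seen. Protein sequences were not used here. Depth has no counterpart on an array; the number of arrays limits the precision. Alternatives were other filters, normalizations, priors and offsets, a replicate block, other probesets and leaving out arrays. Arrays numbered alike deviated from their group means with correlations of 0.078, 0.052 and 6.18e-04 over the tested probesets, so the numbers were not taken as pairs.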

Additional observations from a re-analysis of the deposited data

How the results depend on the processing

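Zbp1 passed under all 15 alternatives, with a difference of 0.67 (16 added to the signal before log2) to 1.02 and a highest adjusted p of 0.0381 (limma, without both replicate 2 arrays). Mlkl kept its direction throughout and lost its call without 4 single arrays and without both replicate 2 arrays (limma, adjusted p = 0.0884). Leaving out 1 array left 1 to 2 of the 32 genes called, 2 to 5 of the pathway list and 150 to 330 of all genes; fewer arrays enter these fits. Without both replicate 2 arrays the counts were 1, 2 and 137. An intensity trend with a robust prior gave 5 (adding Bok, Bak1 and Cycs), 14 and 1281. With the replicate block they were 2, 3 and 336, and the check of the numbers gave no pairing. The pathway and all-gene counts were 10 and 997 in the SAM-type test, 12 and 978 with 16 added to the signal, and 12 and 996 with the filter at the array median; no filter gave 372 genes in all. The other causes were not tested. Bok passed in 4 alternatives (the stricter filter, the SAM-type test, 16 added, and the trend).

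Of the 32 genes, 22 kept their sign in every alternative, and in the other 10, none of which passed, it turned in 28 of the 483 values. Leaving out 1 array gave -0.049 to 0.15 for Bcl2l2, -0.064 to 0.16 for Bcl2l11, -0.16 to 0.019 for Bid, -0.0035 to 0.087 for Pmaip1, -0.067 to 0.074 for Ripk3, -0.027 to 0.12 for Cflar, -0.073 to 0.086 for Fadd and -0.10 to 0.048 for Tradd. Without both replicate 2 arrays Bcl2l2 was at -0.077, Mcl1 at -0.0083, Cflar at -0.070 and Tradd at 0.011. A second quantile normalization gave 0.023 for Ripk3, 0.016 for Fadd and 0.0018 for Tradd, and other probesets gave -0.078 for Cflar and -0.33 for Cycs.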
